A study of Mus musculus with 18 samples.

Results

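The neuronal genes Cadps, Unc13a, Nrxn3, Nlgn1, Dlg2, Stmn2, Sort1, Nkain2 and Csmd1 were followed through the spinal cords of mice carrying human ATXN2 and TDP-43 sequences. They are known as targets of the RNA-binding protein TDP-43 in human or mouse cells, or for long introns in neurons. These 9 genes were taken by name from what is known of TDP-43, out of 54446 annotated genes. No threshold was set on their values here, but earlier results of these data were known when they were chosen. All 9 passed the filter on low counts and were among the 20635 genes tested. Tissue labelled as whole spinal cord was taken at 10 months of age from untreated mice of 6 genotypes, 3 animals in each, and total RNA was sequenced. All genotypes but the last were heterozygous for human sequences knocked in. These were ATXN2 with 33 glutamines together with TDP-43 (labelled Q33;TDP-43 and called the Q33 double knock-in here), ATXN2 with 22 glutamines together with TDP-43 (Q22;TDP-43, the Q22 double knock-in), TDP-43 alone, ATXN2 with 33 glutamines alone (Q33) and ATXN2 with 22 glutamines alone (Q22). The last group, NTg, was non-transgenic C57BL/6 mice. The labels name no promoter, clone, sex or litter.

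TDP-43 is mainly nuclear and binds stretches of RNA rich in alternating G and U. When it is depleted, intron sequence that it normally keeps silent is spliced into mRNA as so-called cryptic exons, and neuronal genes with very long introns lose mRNA. Loss of TDP-43 from the nucleus is a hallmark of amyotrophic lateral sclerosis, in which moderately expanded glutamine tracts in ATXN2, a cytoplasmic RNA-binding protein, are a known risk factor. The cryptic exons of STMN2 and UNC13A are known from human cells, and no such exon was looked for in the mouse genes here. TDP-43 depletion in mouse brain is known to alter an alternative exon of Sort1. The counts analysed here were summed over all annotated exons of a gene, so they give the amount of RNA per gene and cannot show whether an exon was included or skipped.

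The genes fall into very long and ordinary ones. Dlg2 spans 1970 kb of chromosome 7 (mm10 90476672 to 92449247), Csmd1 1640 kb of chromosome 8 (15892537 to 17535586) and Nrxn3 1610 kb of chromosome 12 (88722876 to 90334935), which rank 8, 9 and 10 by span among the genes tested. Nkain2 spans 1200 kb of chromosome 10 (31689310 to 32890462), Nlgn1 906 kb of chromosome 3 (25426215 to 26332460) and Cadps 451 kb of chromosome 14 (12372563 to 12823079). The longest single intron among them was that of Nlgn1, at 473 kb. Sort1, Stmn2 and Unc13a are far shorter: Sort1 spans 77.4 kb of chromosome 3 (108284082 to 108361511), Stmn2 52.2 kb of the same chromosome (8509360 to 8561606) and Unc13a 47.3 kb of chromosome 8 (71624417 to 71671757). The median gene tested spans 16.2 kb. Exons make up 0.392% of the span of Nkain2 and 26.7% of that of Unc13a. Dlg2 alone shares exon bases with another gene on its strand, for 225 of its exon bases (1.38%).

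Alternating GT letters, the DNA form of the repeats TDP-43 binds, were counted in the longest protein-coding transcript of each gene (GENCODE vM21 transcripts, mm10, transcript strand, overlapping matches of GTGTGT counted). Csmd1 held 29 matches, Unc13a and Nrxn3 6 each, Sort1 4, Nkain2 3, Cadps 2, Stmn2 and Dlg2 1 each, and Nlgn1 held 0. At least 1 match was present in 58.3% of 21901 protein-coding genes, and in 90.2% of the 3681 whose transcript had 5000 bases or more. The sequences that follow, 5′ to 3′, are the longest alternating runs of the genes that were called in a comparison and have the run in the 3′ UTR, and of Unc13a as a well-known human target. Capitals mark the run. For Csmd1 the first 30 bases of a run of 44 bases are shown, so its letters are all capitals.
Csmd1: TGTGTGTGTGTGTGTGTGTGTGTGTGTGTG
Unc13a: ctctgcacaTGTGTGTGTGTGgctgtgtgt
Nrxn3: gttctgaccaGTGTGTGTGTaactttccaa
Nkain2: aaggagctgtaTGTGTGTcttctgcagat
Stmn2: atcgtgggtacTGTGTGTccatgtgaacc
The run of Csmd1 was the longest of the 9 genes, while Cadps, Dlg2 and Nlgn1 had no run beyond 6 bases. A match in these letters describes the transcript only and does not show that the protein binds there. Introns were not analysed here.

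Depth ran from 16061359 to 30978678 counts per library. Levels are given as CPM, which puts the counts of every library on 1 common total after scaling by the trimmed mean of M-values (TMM), and each fold change comes from 1 edgeR quasi-likelihood fit over all 18 libraries, with p-values adjusted over the 20635 genes and a gene called at an adjusted p under 0.05. The Q33 double knock-in libraries stood apart in more than these genes. Their mitochondrial ribosomal RNA took 26.1% ± 2.7 of counts, against 17.8% ± 3.05 in NTg libraries (SD, n = 3 each). The Hox10 and Hox11 genes, which are switched on in the lumbar and sacral cord, averaged 1.77 ± 1.56 log2 CPM in Q33 double knock-in libraries and -1.43 ± 0.6 in NTg libraries (SD, n = 3 each). Over the 18 libraries this mean ran from -2.46 to 3.53, and Hoxa11, 1 of these genes, averaged 2.61 CPM in the Q33 double knock-in and 0 CPM in TDP-43 and NTg cords. The libraries labelled whole cord thus differed in markers of its lower levels, and the labels give no level. Y-linked genes exceeded 10 CPM in 1 of 3 Q33 double knock-in libraries and in 0 of 3 NTg libraries. They did so in 1 of 3 Q22 double knock-in, 2 of 3 TDP-43, 2 of 3 Q33 and 3 of 3 Q22 libraries. Genotype and Y-linked level therefore cannot be told apart between Q22 and NTg. All 12 pan-neuronal markers averaged at least 1 CPM in each genotype, as did all 8 oligodendrocyte markers, so neurons and glia of the cord were both sampled. Mouse Tardbp had 122 ± 4.88 CPM in Q33 double knock-in libraries and 126 ± 2.21 CPM in NTg libraries, and mouse Atxn2 had 185 ± 15 CPM in the Q33 double knock-in and 182 ± 12.6 CPM in NTg (SD, n = 3 each). Neither was called (edgeR adjusted p of 0.73 and 0.88), and since the human sequences were not counted apart, these values do not check the knock-in labels.

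In the Q33 double knock-in cord, 4 of the 9 genes changed against NTg cord, 2 up and 2 down, and on library totals without TMM scaling the calls were 0 up and 4 down. Cadps, a factor that primes dense-core vesicles for release, and Stmn2, a tubulin-binding protein of growing axons, were higher, by 1.38-fold and 1.49-fold. Nkain2, a membrane protein that interacts with the sodium pump, and Csmd1, a large membrane protein that inhibits complement, were lower, at 0.629 and 0.726 of the NTg level. Nrxn3, Nlgn1, Unc13a, Sort1 and Dlg2 were not called. The count of 4 was 2 (Cadps and Nkain2) without NTg replicate 1, NTg replicate 3 or Q33 double knock-in replicate 1. Over all genes tested, 12.1% were called in this comparison, 5.68% higher and 6.39% lower, and the median log2 fold change was -0.06 over the 9 genes and -0.01 over all genes. Because 9 genes are few and were proposed with results of these data in view, the 4 called are a description of these genes and not a test of the group. In bulk cord, fewer cells of a type and less RNA per cell cannot be told apart.

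**Figure D1:**
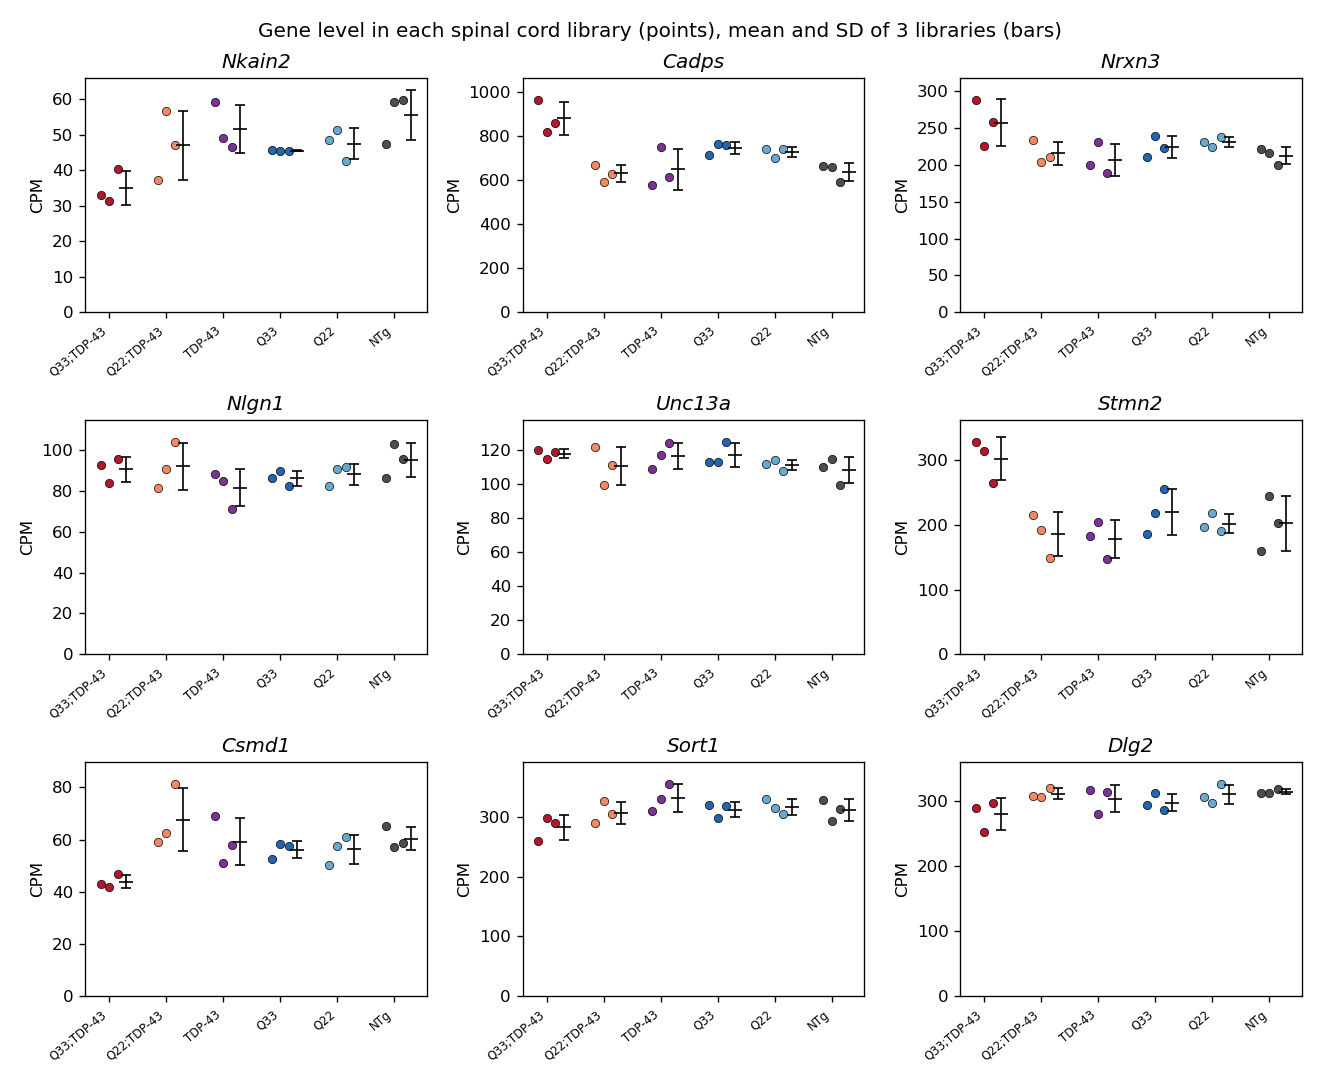
Level of each of the 9 genes in CPM (vertical axes, from 0) in every library, by genotype, with the Q33 double knock-in at the left and NTg at the right of each panel; points are libraries and bars the mean and SD of 3. On average Cadps, Stmn2, Nrxn3 and Unc13a stood highest, and Nkain2, Csmd1, Sort1 and Dlg2 lowest, in the Q33 double knock-in. Nlgn1, Unc13a, Sort1 and Dlg2 were called in none of the 8 comparisons.

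The release machinery was represented by Cadps and Unc13a. Cadps had 967, 821 and 859 CPM in Q33 double knock-in libraries, against 665, 663 and 593 CPM in NTg libraries. It had 672, 593 and 631 CPM in Q22 double knock-in libraries, 581, 754 and 614 CPM in TDP-43 libraries, 716, 766 and 760 CPM in Q33 libraries and 743, 704 and 742 CPM in Q22 libraries. Every Q33 double knock-in library lay above every other library of the series. The log2 fold change against NTg was 0.46 (SE 0.10, edgeR adjusted p = 0.0063), against TDP-43 it was 0.44 (SE 0.10, edgeR adjusted p = 0.0082) and against the Q22 double knock-in it was 0.48 (SE 0.10, edgeR adjusted p = 0.0044). Against Q33 it was 0.24 and was not called (edgeR adjusted p = 0.2). The single knock-in Q33 libraries also lay above the NTg libraries without overlap, at a log2 fold change of 0.22 that was not called (edgeR adjusted p = 0.66).

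Unc13a, which readies synaptic vesicles for fusion, kept a narrow range. It had 120, 115 and 119 CPM in Q33 double knock-in libraries, against 110, 115 and 99.8 CPM in NTg libraries. Over all 18 libraries its highest value was 1.26 times its lowest, with a coefficient of variation of 6.3%. The log2 fold change between the Q33 double knock-in and NTg was 0.13 (SE 0.08, edgeR adjusted p = 0.34). In none of the 8 comparisons of genotypes was Unc13a called, and its log2 fold changes lay between 0.01 and 0.13. Unc13b, its paralog in the same vesicle step, had 1.62 ± 0.125 CPM per kb of exon in NTg libraries, where Unc13a had 8.56 ± 0.603 (SD, n = 3 each). Unc13b averaged 16.7 ± 3.01 CPM in Q33 double knock-in libraries and 36.7 ± 2.84 CPM in NTg libraries (SD, n = 3 each). The fall was called, with a log2 fold change of -1.14 (SE 0.18, edgeR adjusted p = 0.00098).

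Among synaptic adhesion and scaffold genes, Nrxn3 was the one with a call. Nrxn3 encodes a presynaptic adhesion receptor of the neurexin family, and it had 288, 225 and 258 CPM in Q33 double knock-in libraries, 199, 231 and 189 CPM in TDP-43 libraries and 221, 216 and 200 CPM in NTg libraries. Against TDP-43 the libraries overlapped, because the lowest Q33 double knock-in library fell below the highest TDP-43 library, yet the log2 fold change of 0.32 was called (SE 0.10, edgeR adjusted p = 0.037). That call held in only 6 of 15 alternative fits of the counts. Against NTg the libraries did not overlap, but the log2 fold change of 0.28 missed the threshold (SE 0.10, edgeR adjusted p = 0.067). Nlgn1, a postsynaptic partner of neurexins, averaged 90.6 ± 6.18 CPM in the Q33 double knock-in and 94.8 ± 8.19 CPM in NTg (SD, n = 3 each), with a log2 fold change of -0.06 (SE 0.10, edgeR adjusted p = 0.73). Its lowest mean was in TDP-43 cord, at 81.5 ± 9.08 CPM, with a log2 fold change against NTg of -0.22 (SE 0.10, unadjusted p = 0.044, edgeR adjusted p = 1). Dlg2, a scaffold of the postsynaptic density, was the steadiest of the 9 genes, with a coefficient of variation of 5.92% over the 18 libraries. It had 289, 252 and 297 CPM in Q33 double knock-in libraries and 312, 312 and 318 CPM in NTg libraries. These groups did not overlap, but the log2 fold change of -0.17 was not called (SE 0.08, edgeR adjusted p = 0.17).

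Stmn2 varied most. It had 328, 314 and 264 CPM in Q33 double knock-in libraries, against 159, 245 and 202 CPM in NTg libraries. In the Q22 double knock-in it had 215, 192 and 148 CPM, in TDP-43 cords 183, 204 and 147 CPM, in Q33 cords 185, 218 and 255 CPM and in Q22 cords 196, 218 and 190 CPM. All Q33 double knock-in libraries lay above all other libraries, and the highest of the 18 values was 2.24 times the lowest. The log2 fold change was 0.58 against NTg (SE 0.16, edgeR adjusted p = 0.028), 0.76 against TDP-43 (SE 0.16, edgeR adjusted p = 0.0073) and 0.71 against the Q22 double knock-in (SE 0.16, edgeR adjusted p = 0.01). As background, loss of nuclear TDP-43 is known to lower STMN2 mRNA in human neurons, and its cryptic exon is known from human cells. The rise here was in mouse cord, and its relation to TDP-43 was not tested. The call against NTg was lost when any 1 of 4 libraries was left out. Without NTg replicate 1 the edgeR adjusted p was 0.11, without NTg replicate 3 it was 0.076, without Q33 double knock-in replicate 1 it was 0.13 and without its replicate 2 it was 0.073.

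Sort1, a sorting receptor that binds progranulin, had 259, 298 and 289 CPM in Q33 double knock-in libraries, 309, 329 and 355 CPM in TDP-43 libraries and 328, 292 and 313 CPM in NTg libraries. Every Q33 double knock-in library was below every TDP-43 library, with a log2 fold change of -0.23 that missed the threshold (SE 0.08, edgeR adjusted p = 0.068). Against NTg the libraries overlapped and the log2 fold change was -0.14 (SE 0.08, edgeR adjusted p = 0.26).

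Nkain2 was on average lowest in the Q33 double knock-in and highest in NTg. It had 33, 31.4 and 40.4 CPM in Q33 double knock-in libraries, against 47.4, 59.1 and 59.8 CPM in NTg libraries. It had 37.3, 56.6 and 47 CPM in Q22 double knock-in libraries, 59.2, 48.9 and 46.5 CPM in TDP-43 libraries, 45.6, 45.5 and 45.3 CPM in Q33 libraries and 48.4, 51.2 and 42.6 CPM in Q22 libraries. The Q33 double knock-in overlapped only the Q22 double knock-in, through the replicate of that group with 37.3 CPM. The log2 fold change was -0.67 against NTg (SE 0.14, edgeR adjusted p = 0.0066) and -0.56 against TDP-43 (SE 0.14, edgeR adjusted p = 0.015), and against the Q22 double knock-in it was -0.43 and just missed the threshold (SE 0.14, edgeR adjusted p = 0.051). Nkain2 was 1 of 2 members, with Cadps, that stayed called against NTg when any 1 library of either group was left out.

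Csmd1 had 43, 41.9 and 46.7 CPM in Q33 double knock-in libraries, against 65.3, 57 and 58.7 CPM in NTg libraries. It had 59.2, 62.4 and 81.4 CPM in Q22 double knock-in libraries, 68.9, 50.9 and 57.8 CPM in TDP-43 libraries, 52.4, 58.4 and 57.6 CPM in Q33 libraries and 50.3, 57.5 and 60.9 CPM in Q22 libraries. All 3 Q33 double knock-in libraries were below all 15 others. The log2 fold change was -0.46 against NTg (SE 0.12, edgeR adjusted p = 0.022), -0.43 against TDP-43 (SE 0.12, edgeR adjusted p = 0.029) and -0.63 against the Q22 double knock-in (SE 0.12, edgeR adjusted p = 0.004). Leaving out NTg replicate 1 or 3, or Q33 double knock-in replicate 1 or 2, ended the call against NTg, with edgeR adjusted p of 0.097, 0.065, 0.092 and 0.07.

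**Figure D2:**
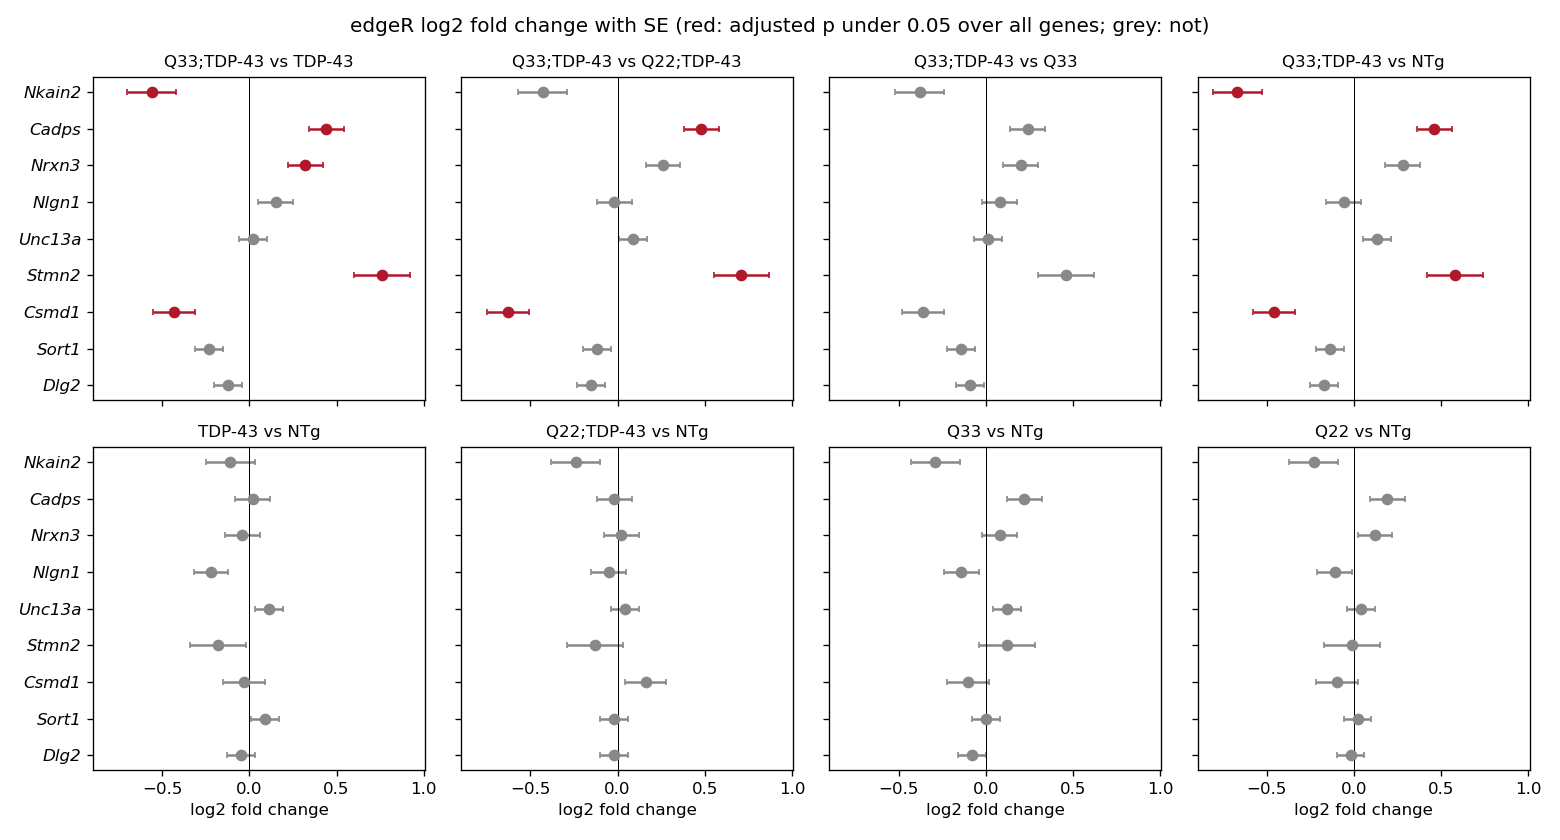
Log2 fold change (horizontal axes) with its SE for each of the 9 genes in 8 comparisons of genotypes, called genes in red and others in grey. The upper row sets the Q33 double knock-in against 4 groups and the lower row sets the other genotypes against NTg, where no gene was called.

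By comparison, the Q33 double knock-in against TDP-43 had 5 of the 9 genes called (3 higher, 2 lower), where 12.6% of all genes were called, 5.98% higher and 6.66% lower. That count was 0 without Q33 double knock-in replicate 1, 2 without TDP-43 replicate 1, 3 without TDP-43 replicate 3 or Q33 double knock-in replicate 2, and 1 (Stmn2) in a fit of only the libraries compared. On library totals without TMM scaling it was also 5 but of partly other genes, 1 higher (Stmn2) and 4 lower (Nkain2, Csmd1, Sort1 and Dlg2). Against the Q22 double knock-in there were 3 (2 higher, 1 lower), where 12.8% of all genes were called, 6.67% higher and 6.17% lower. That count was 2 (Cadps and Csmd1) without Q22 double knock-in replicate 3 or Q33 double knock-in replicate 1, and on library totals it was 5, with the same 1 higher and 4 lower. The median log2 fold change of all genes was -0.25 on library totals in both of these comparisons. Against Q33 the count was 0, where 0.892% of all genes were called, 0.213% higher and 0.678% lower. In that comparison 4 of the 9 had an unadjusted p under 0.05, as did 3650 of all 20635 genes. The edgeR adjusted p of the 4 lay between 0.13 and 0.2, and DESeq2 also called 0. With no filter on low counts Stmn2 was called against Q33 (0.47, edgeR adjusted p = 0.00095). These comparisons share the Q33 double knock-in libraries, so their values are not independent of each other. Q33 double knock-in and NTg libraries did not overlap for 7 of the 9 genes, where 30.2% of all genes did not overlap. The same held for 5 of 9 against TDP-43 (27.2% of all genes), 4 against the Q22 double knock-in (29.2%) and 4 against Q33 (22.7%).

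In the Q22 double knock-in, TDP-43, Q33 and Q22 cords, each set against NTg, edgeR called 0 of the 9 genes, where the share of all genes called was 0.00969% (0.00485% in each direction), 0%, 0% and 0%. At an unadjusted p under 0.05 there were 0 of the 9 genes in the Q22 double knock-in, 1 in TDP-43 (Nlgn1), 1 in Q33 (Cadps) and 0 in Q22, and DESeq2 also called 0 in each. Over all 20635 genes, 474, 873, 1502 and 873 reached that unadjusted level in the same order of groups. Libraries did not overlap with NTg for 0, 0, 2 and 2 of the 9 genes in these 4 groups, where the shares over all genes were 6.89%, 7.81%, 15.5% and 10.6%. The 4 comparisons share the NTg libraries. Whether the effect of human TDP-43 differed between cords with the Q33 knock-in and cords without an ATXN2 knock-in was tested as an interaction. It called 0 of 20635 genes (0%), with 2674 at an unadjusted p under 0.05. DESeq2 also called 0 of the 9 genes. Stmn2 had the largest interaction, 0.65 on the log2 scale (SE 0.23, unadjusted p = 0.012, edgeR adjusted p = 0.28), and was the only 1 of the 9 with an unadjusted p under 0.05. With no filter on low counts the interaction of Stmn2 was called (edgeR adjusted p = 0.0026). The interaction with the Q22 knock-in called 0 genes as well, with 828 genes and 0 of the 9 at an unadjusted p under 0.05, and DESeq2 called 0 of the 9. Q33 and Q22 were not set against each other in an interaction, so tract length was not tested in this way. In the test of any difference among the 6 genotypes, edgeR called Cadps (adjusted p = 0.026) and Stmn2 (adjusted p = 0.046), where 4.16% of all genes were called, and Csmd1 (adjusted p = 0.058) and Nkain2 (adjusted p = 0.071) missed the threshold. In that test 0 of the 9 were called without Q33 double knock-in replicate 1 or 3, and the call of Stmn2 was also lost without each of several other libraries.

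**Figure D3:**
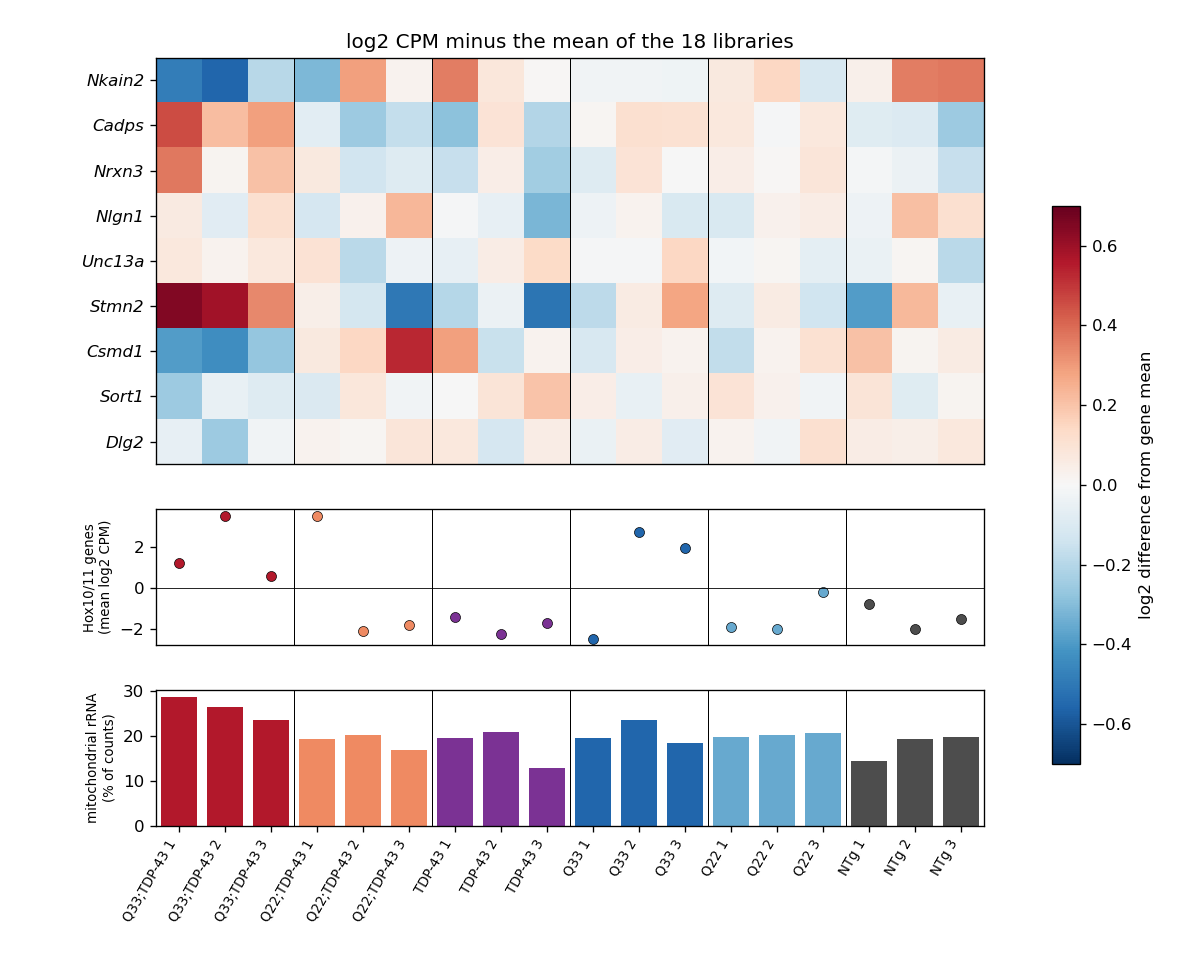
Upper panel: log2 CPM of the 9 genes in each of the 18 libraries minus the gene's mean, on a colour scale. Middle and lower panels: the Hox10 and Hox11 genes as mean log2 CPM, and the percentage of counts in mitochondrial ribosomal RNA in the same libraries; the 3 Q33 double knock-in libraries, at the left, had 23.4% to 28.7%.

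The library properties given above were entered as covariates. With the mean of the Hox10 and Hox11 genes as a covariate, 0 of the 9 genes were called in the Q33 double knock-in against NTg, with log2 fold changes of 0.43 for Cadps (edgeR adjusted p = 0.054), -0.48 for Nkain2 (0.08), -0.45 for Csmd1 (0.11) and 0.44 for Stmn2 (0.21). With the mitochondrial ribosomal RNA share as a covariate, 0 were called too, with -0.78 for Nkain2 (edgeR adjusted p = 0.16), 0.37 for Cadps (0.36), -0.32 for Csmd1 (0.48) and 0.13 for Stmn2 (0.8). Over all genes tested, the calls fell from 2491 to 529 with the Hox covariate and to 28 with the mitochondrial covariate. The loss of calls was therefore not particular to the 9 genes. The mitochondrial share ran from 23.4% to 28.7% in the Q33 double knock-in and from 14.3% to 19.8% in NTg, so genotype and share cannot be told apart in this comparison. The Hox mean ran from 0.57 to 3.53 in the Q33 double knock-in and from -1.98 to -0.78 in NTg. Genotype and Hox mean thus cannot be told apart in this comparison either. Hox values were also high in Q22 double knock-in replicate 1, at 3.52, and that library had the lowest Nkain2 (37.3 CPM) and Csmd1 (59.2 CPM) and the highest Cadps (672 CPM) and Stmn2 (215 CPM) of its group. In Q33 the Hox value was 2.72 and 1.95 in replicates 2 and 3, which had 218 and 255 CPM of Stmn2, against -2.46 in replicate 1, which had 185 CPM. Cadps was also higher in these replicates 2 and 3 (766 and 760 CPM) than in replicate 1 (716 CPM), while Nkain2 was level (45.5, 45.3 and 45.6 CPM). Csmd1 was likewise higher in replicates 2 and 3 of Q33, at 58.4 and 57.6 CPM, than in replicate 1, at 52.4 CPM, whereas in the Q22 double knock-in it was lowest in the library with the high Hox value. In the Q33 double knock-in, replicate 2 had the highest Hox value, at 3.53. That library had the lowest Cadps (821 CPM), Nkain2 (31.4 CPM) and Csmd1 (41.9 CPM) of its group, with Stmn2 in between (314 CPM). These are values of single libraries, and the relation of the Hox value to these genes within a genotype was not tested.

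The scale also bears on which genes were called higher or lower. On library totals without TMM scaling, 0 of the 9 genes were higher and 4 lower (Nkain2, Csmd1, Sort1 and Dlg2) in the Q33 double knock-in against NTg, in place of 2 and 2. The log2 fold changes of Cadps and Stmn2 were then 0.22 and 0.34 and not called (edgeR adjusted p = 0.094 and 0.1). The median log2 fold change of all genes was -0.25 on that scale, so relative to it Cadps and Stmn2 lay higher and Sort1 (-0.38) and Dlg2 (-0.41) lower. With totals that leave out mitochondrial ribosomal RNA, a scale chosen after seeing the data, 1 of the 9 genes was higher and 2 lower.

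Markers of cell types moved in the same comparison. The 12 pan-neuronal markers summed to 12100 to 14900 CPM in Q33 double knock-in libraries and 8230 to 9490 CPM in NTg libraries, and 6 rose and 1 fell (58.3% called, against 12.1% of all genes). Snap25, the largest part of the sum, averaged 4850 CPM in the Q33 double knock-in and 3150 CPM in NTg. Syt1 fell, with 127 CPM in the Q33 double knock-in and 234 CPM in NTg. The sums in Q33 (10600 to 13000 CPM) and Q22 libraries (9730 to 13100 CPM) also lay above every NTg library. The 10 motor neuron markers summed to 496 to 795 CPM in the Q33 double knock-in and 336 to 509 CPM in NTg. The 12 dorsal horn neuron markers summed to 33 to 53.4 CPM in the Q33 double knock-in and 86.3 to 105 CPM in NTg. The 8 oligodendrocyte markers summed to 9950 to 12400 CPM in the Q33 double knock-in and 13600 to 15200 CPM in NTg. Neuronal sums were thus higher and dorsal horn and oligodendrocyte sums lower in the Q33 double knock-in, without overlap, while the motor neuron sums overlapped. The 6 oligodendrocyte precursor markers summed to 164 to 187 CPM in the Q33 double knock-in and 216 to 250 CPM in NTg, and the 8 microglial markers to 196 to 223 CPM in the Q33 double knock-in and 261 to 318 CPM in NTg. Astrocyte markers summed to 6380 to 7880 CPM in the Q33 double knock-in and 7790 to 8140 CPM in NTg, and endothelial markers to 184 to 256 CPM in the Q33 double knock-in and 118 to 191 CPM in NTg, with overlap in both. Of the 8 astrocyte markers 3 fell and 0 rose (37.5% called, against 12.1% of all genes), and means differed widely between them. Gfap averaged 390 CPM in the Q33 double knock-in and 1160 CPM in NTg and Slc1a3 37 CPM in the Q33 double knock-in and 71.8 CPM in NTg, while Slc1a2, which makes up most of the sum, averaged 4760 CPM in the Q33 double knock-in and 4800 CPM in NTg. Of 5 dorsal root ganglion markers, 4 averaged under 1 CPM in both groups. None of the markers in the other lists named here was at 0 in all libraries of the Q33 double knock-in or NTg. Their part in the values of the 9 genes was not tested.

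Levels between genes can be compared only per exon length. On that scale Cadps was the most abundant over the 18 libraries, at 47.4 CPM per kb of exon, followed by Sort1 at 40.9, Stmn2 at 38.3, Dlg2 at 18.6, Nrxn3 at 17.8, Nkain2 at 9.97, Unc13a at 9.01, Nlgn1 at 6.62 and Csmd1 at 3.01. The order was not the same in every genotype. In the Q33 double knock-in, Stmn2 (54 CPM per kb) exceeded Sort1 (37.3), Nrxn3 (20.4) exceeded Dlg2 (17.2) and Unc13a (9.35) exceeded Nkain2 (7.41), and in TDP-43 cords Sort1 (43.7) exceeded Cadps (43.2). Among the genotypes, the Q33 double knock-in had the highest mean Cadps and Stmn2 levels and the lowest mean Nkain2 and Csmd1 levels, and in each of these the next genotype in order was Q33, without overlap between their libraries. The Q33 double knock-in also had the highest mean Nrxn3 and Unc13a levels and the lowest mean Sort1 and Dlg2 levels. For Nrxn3, Nlgn1, Unc13a, Sort1 and Dlg2, libraries of neighbouring genotypes in the order overlapped throughout.

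The genes whose centred log2 CPM profile over the 18 libraries lay nearest to each of the 9, among 16277 genes, were Lrrn1 and Prrg1 for Nkain2, Atrnl1 and Scn1a for Cadps, and Cdk14 and Med12l for Nrxn3. For Nlgn1 they were Fbxl17 and Mtf2, for Unc13a Map3k4 and Mfn1, for Stmn2 Vamp1 and Rimkla, and for Csmd1 Zfp704 and Spaca6. For Sort1 they were Ctcf and Scaf11, and for Dlg2 Csrnp3 and Rims2. Root mean square differences ran from 0.046 to 0.108 on the log2 scale, and closeness was a description of these libraries only.

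Among the 23 paralogs of the 9 genes, 2 rose and 5 fell when Q33 double knock-in cord was set against NTg cord, with a median log2 fold change of -0.12. The 7 called were 30.4% of the paralogs, where 12.1% of all genes were called. The counts were 1 and 10 on library totals, 0 and 2 with the Hox covariate and 0 and 0 with the mitochondrial covariate. Stmn3, a neuronal relative of Stmn2, 1 of the 12 pan-neuronal markers above and the most abundant of its family per exon length, averaged 443 ± 95.2 CPM in the Q33 double knock-in and 262 ± 27.4 CPM in NTg (SD, n = 3 each), with a log2 fold change of 0.76 (SE 0.16, edgeR adjusted p = 0.0061). Nkain3 rose too, at 0.53 (SE 0.15, edgeR adjusted p = 0.026), a call lost on library totals (0.29, edgeR adjusted p = 0.15), while its relative Nkain2 fell. Cadps2, the paralog of Cadps, fell to 22.9 ± 1.12 CPM in the Q33 double knock-in, against 34.4 ± 0.712 CPM in NTg (SD, n = 3 each), with a log2 fold change of -0.59 (SE 0.14, edgeR adjusted p = 0.012). Unc13b, Nlgn3 (-0.37), Sorcs1 (-0.41) and Dlg1 (-0.28) were the other 4 that fell. The most abundant paralogs per exon length of the neuroligin, Unc13, Csmd, sortilin and Nkain families were not called, with log2 fold changes of 0.08 for Nlgn2, -0.16 for Unc13c, -0.07 for Csmd3, 0.12 for Sorl1 and -0.11 for Nkain1. Against TDP-43, 5 of the 23 (21.7%, against 12.6% of all genes) were called (Stmn3 and Nkain3 higher, Unc13b, Dlg1 and Sorcs1 lower). Against the Q22 double knock-in 9 (39.1%, against 12.8% of all genes) were called, with Cadps2, Nlgn3, Unc13c and Unc13d added to the lower ones.

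**Figure D4:**
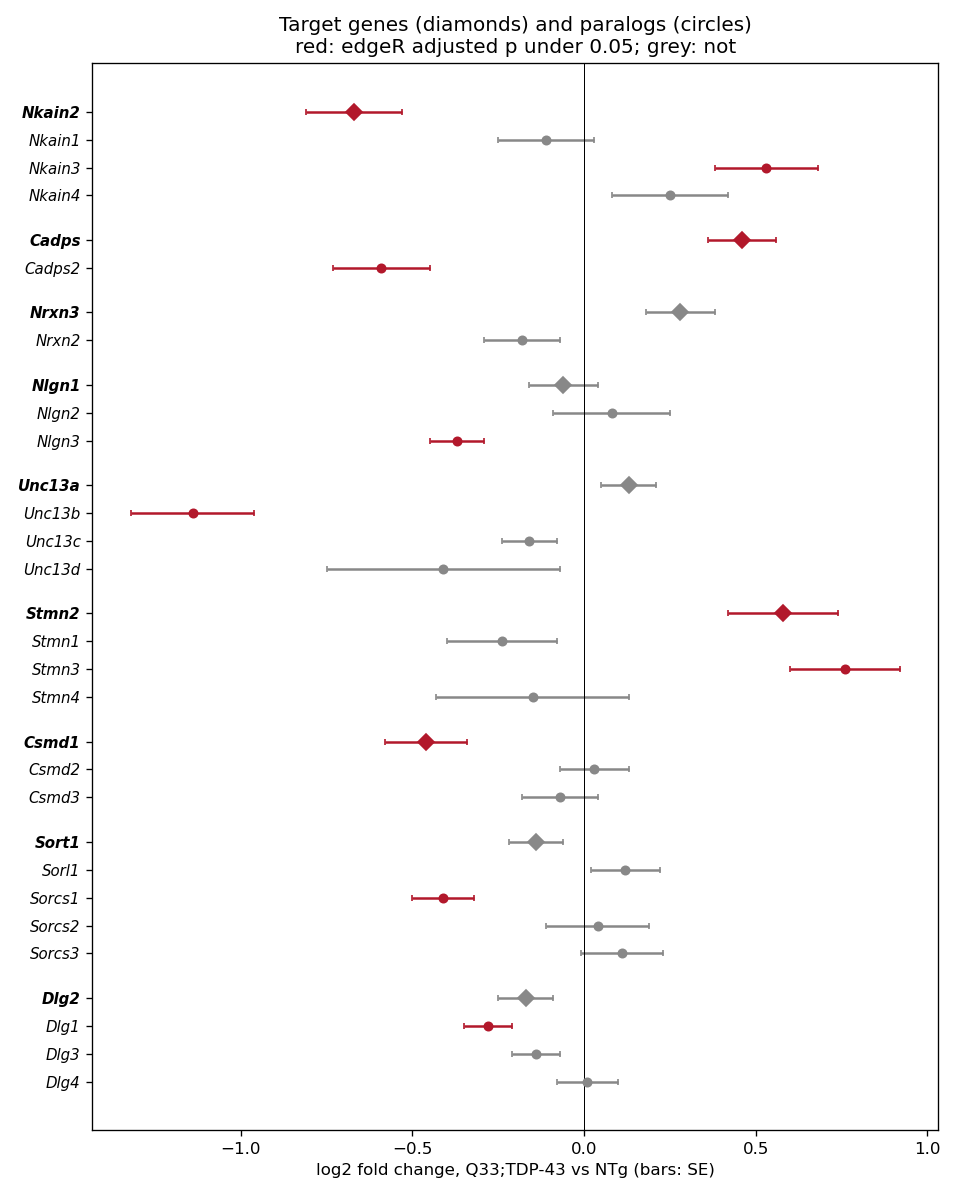
Log2 fold change, Q33 double knock-in against NTg (horizontal axis, with SE) for the 9 genes (diamonds, bold) and paralogs of them (circles), grouped by family; red marks called genes. Cadps stood at 0.46 and Cadps2 at -0.59, and Nkain2 at -0.67 and Nkain3 at 0.53, while Stmn2 and Stmn3 were both higher.

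Other genes known as TDP-43 targets were read the same way, Q33 double knock-in against NTg. Of 24 other neuronal genes with long introns, 0 rose and 3 fell (0 and 9 on library totals), with a median log2 fold change of -0.04. The share called was 12.5%, close to the 12.1% of all genes. The 3 were Grm5, a metabotropic glutamate receptor (-0.61, edgeR adjusted p = 0.013), Negr1, a neuronal adhesion protein (-0.36, edgeR adjusted p = 0.0055), and Robo2, an axon guidance receptor (-0.32, edgeR adjusted p = 0.049). Of 22 other genes known for cryptic exons, 1 rose and 2 fell (0 and 6 on library totals), a share of 13.6% against 12.1% of all genes. Pfkp, a glycolytic enzyme, was the higher one (0.36, edgeR adjusted p = 0.048), and Unc13b and the ion exchanger Slc24a3 (-0.38, edgeR adjusted p = 0.045) were lower. Unc13b is also counted among the paralogs above, so the lists are not separate. Of 5 genes known for a TDP-43-dependent splice switch, Pdp1 rose (0.47, edgeR adjusted p = 0.0067), Kcnip2, a potassium channel subunit, fell and Dnajc5 was not called (0.17, edgeR adjusted p = 0.17). These 2 calls were 40% of the 5 genes, and the counts were 0 higher and 1 lower on library totals, where Pdp1 was not called (0.23, edgeR adjusted p = 0.068). Kcnip2 averaged 2.09 ± 1.01 CPM in the Q33 double knock-in and 9.66 ± 1.13 CPM in NTg (SD, n = 3 each), a log2 fold change of -2.22 (SE 0.29, edgeR adjusted p = 2e-04), which is 0.215 of the NTg level. With the Hox covariate the calls of Kcnip2 (-2.05, edgeR adjusted p = 0.0029), Unc13b (-1.03, 0.014) and Negr1 (-0.39, 0.027) held. With the mitochondrial covariate the log2 fold changes were of similar size and none was called, at -1.92 for Kcnip2 (edgeR adjusted p = 0.062), -0.97 for Unc13b (0.17) and -0.44 for Negr1 (0.11).

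Gene span was looked at across the whole table, in bins chosen after seeing the data. Comparing Q33 double knock-in with NTg, 17.5% of the 354 genes of 400 kb or more were lower and 6.5% higher. In the 2127 genes of 100 to 400 kb, 14.4% were lower and 6.3% higher, and in the 18154 shorter genes 5.23% were lower and 5.6% higher. The median log2 fold change of the longest genes was -0.04. On library totals the lower shares were 35.9%, 34.3% and 17%, with the Hox covariate 7.06%, 4.94% and 1.54%, and with the mitochondrial covariate 0.282%, 0.376% and 0.105%, from the longest bin to the shortest. Of the 6 members in that longest bin, Nkain2 and Csmd1 fell, Cadps rose, and Nrxn3, Nlgn1 and Dlg2 were not called.

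**Figure D5:**
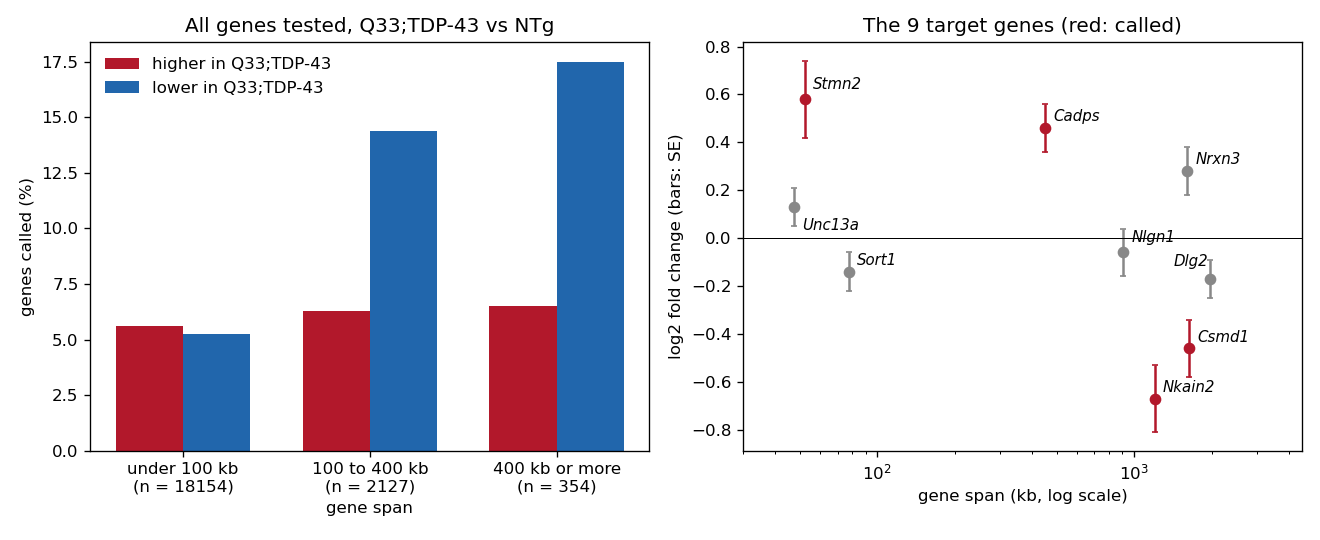
Left: percentage of genes called higher (red) or lower (blue) between Q33 double knock-in and NTg cords in 3 bins of gene span. Right: log2 fold change with SE of the 9 genes in the same comparison against gene span on a log axis; Stmn2 (52.2 kb) and Cadps (451 kb) were higher, Nkain2 (1200 kb) and Csmd1 (1640 kb) lower.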

How the data were processed

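RNA was sequenced from the spinal cords of 18 mice. Per the labels' protocols, ribosomal RNA was depleted, stranded total RNA libraries were made, and paired reads of 100 bases were run on 3 lanes. The deposited table holds whole-number counts per gene, made by the authors with featureCounts 1.6.1 from TopHat alignments on GENCODE mouse release 19 exons in stranded paired mode, per the file headers. The exon length per gene is another deposited column. Trim Galore 0.4.1, TopHat2, featureCounts, DESeq2 and mm10 are named in the submitters' processing notes. Multi-mapping pairs are not counted, so a gene with a near-identical copy loses reads. Symbols matched 54409 of 54446 identifiers (99.93%).

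Counts were fitted with the two-sided quasi-likelihood test of edgeR 4.0.16 (R 4.3.3, with limma 3.58.1), TMM-scaled, with edgeR's low-count filter, all 18 libraries and a term per genotype, with Benjamini-Hochberg adjustment within each comparison over the 20635 genes. DESeq2 1.42.0, other scalings, no filter, covariates, a sex term, fits limited to the groups compared and leaving out each library were alternatives. Log2 CPM uses a prior count of 2. Replicates are separate animals, numbered in accession order only to name them. No 2 replicates agreed within sampling noise. With 3 libraries per group, small changes may be missed. Intervals of counting error are not given, since SDs and SEs cover the spread between animals. No per-sample column was left unmapped.

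The genes named were the 9 members, their called or most abundant paralogs, the 3 genes with the smallest adjusted p of each target list, the 2 nearest profiles per member, Tardbp and Atxn2. A paralog that this rule takes is not reported here. The members and lists were chosen with earlier results of these data known.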

Additional observations from a re-analysis of the deposited data

How the results depend on the processing

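Of the 9 genes, 4 were called in the Q33 double knock-in against NTg. This count was 0 with the Hox covariate, 0 with the mitochondrial ribosomal RNA covariate and 2 to 4 when each library was left out, with Nkain2 and Cadps left at 2 (without NTg replicate 1, NTg replicate 3 or Q33 double knock-in replicate 1). DESeq2 called 5 and added Nrxn3. Against TDP-43 the count of 5 was 0 with either covariate, 1 (Stmn2) with only the libraries compared, and 0 to 5 without single libraries, reaching 0 without Q33 double knock-in replicate 1. Against the Q22 double knock-in the count of 3 was 5 on library totals (1 higher, 4 lower), 0 with the mitochondrial covariate and 2 to 4 without single libraries. Against Q33 the count of 0, and in the interaction with the Q33 knock-in the count of 0, each became 1 (Stmn2) with no filter on low counts, and stayed at 0 without any single library. In the test of any genotype difference the count of 2 was 4 with DESeq2, 4 with no filter, 0 with either covariate, 1 (Cadps) with a sex term, 1 (Cadps) on totals without mitochondrial ribosomal RNA, and 0 to 4 without single libraries. The remaining comparisons stayed at 0 under all alternatives run. The cause of these shifts was not tested.

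No called value changed direction. Over members, comparisons and alternatives, 1292 log2 fold changes kept their direction and their status as called or not called. A further 55 lost a call, 20 gained one and 91 changed sign with no call in either fit. The main fit called few of these values, so most of the 1292 were called in neither fit. Against NTg, the call in the Q33 double knock-in held in 13 of 15 alternatives for Nkain2, 12 for Cadps, 9 for Csmd1 and 7 for Stmn2. The count over all genes in the Q33 double knock-in against NTg was 2491, 3275 with DESeq2, 4146 on library totals (206 higher, 3940 lower), 529 with the Hox covariate, 28 with the mitochondrial covariate, 1534 with only the libraries compared and 602 to 3048 without single libraries. No paired analysis was possible because the labels carry no replicate numbers shared between genotypes.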
